A study of Arabidopsis thaliana with 23 samples.

Results

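The core centromere-flanking windows are the 100-bp windows of the Arabidopsis genome that lie in 5 intervals around the centromeres. The intervals were chr1:14600001-15600000, chr2:3500001-4100000, chr3:13100001-14100000, chr4:3450001-4450000 and chr5:11200001-12200000 (TAIR10 coordinates). They were chosen by position alone and hold 46000 of the 1196680 windows of the genome, 6000 on Chr2 and 10000 on each of the other chromosomes. At least 1 small RNA read of 21 to 24 nt was found in 41904 of them, in at least 1 library.

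Small RNAs were sequenced from inflorescences of Col-0 plants in 23 libraries that fall into 8 groups and 2 sequencing batches. Batch A held WT (3 libraries), *zmp-2* (3), *zmp-2* carrying the *pZMP::ZMP-YFP* transgene, written *ZMP-YFP zmp-2* (3), and *nrpd1-3* (2). Batch B held WT (3), *zmp-2* (3), *zmp-2 shh1-1* (3) and *zmp-2 nrpd1-3* (3). The study's methods call the replicates biological, and all mutants were T-DNA insertion lines with 1 allele per gene. The transgene drives a tagged ZMP from its own promoter in the mutant. No *shh1-1* single mutant was analysed here, so *zmp-2 shh1-1* and *zmp-2 nrpd1-3* were compared with *zmp-2* of their own batch.

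In plants, RNA polymerase IV (Pol IV), whose largest subunit is NRPD1, makes short transcripts that RDR2 turns into double-stranded RNA and DCL3 cuts into 24-nt siRNAs. These siRNAs guide DNA methylation to transposons and repeats, which crowd around the centromeres. SHH1 binds methylated histone H3 and brings Pol IV to part of its sites, and ZMP is a protein reported to interact with Pol IV. DCL2 and DCL4 can make 22-nt and 21-nt siRNAs from double-stranded RNA as well. The centromeres of Arabidopsis are built of a satellite with a unit of about 178 bp, flanked by old retrotransposons that are annotated largely as pseudogenes.

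The label of the windows was checked against their sequence. A window was called tandem when it was at least 70% identical to the sequence at a distance between 20 and 1000 bp, and 3290 windows repeated at 178 bp or a multiple of it. These occurred on every chromosome, with 641 on Chr1, 291 on Chr2, 148 on Chr3, 431 on Chr4 and 1779 on Chr5. A unit of 159 bp was found in 2374 windows (1974 on Chr1), a unit of 506 bp in 1334 (1138 on Chr3) and a unit of 648 bp in 422 (378 on Chr5). The assembly held 108892 uncalled bases in the intervals, 100440 of them on Chr1. The RefSeq annotation of TAIR10.1 placed 742 pseudogenes, 99 protein-coding genes and 36 noncoding genes there. Transposable elements and 5S rRNA genes were not analysed here.

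Sequences were read from the + strand of the RefSeq TAIR10.1 genome for the windows on which the results turn, and are given 5′ to 3′. The first is the window with the most 24-nt reads in WT, chr4:4105001-4105100, which overlaps no annotated gene. The next is the window of Chr3 with the most WT reads together with the rest of its satellite unit, chr3:13586901-13587078, in which capitals mark the bases that differ in the next copy (158 of 178 bases are the same). The third is the window with the lowest false discovery rate (FDR) among those lower in *zmp-2* of batch A, chr4:3510501-3510600, in the pseudogene AT4G06567. The last is the first 300 bases of a unit of the 648-bp array on Chr5, chr5:11247301-11247600, where capitals mark the bases that differ in the next copy (289 of 300 are the same). Lower-case letters carry no mark.
Chr4 most abundant window: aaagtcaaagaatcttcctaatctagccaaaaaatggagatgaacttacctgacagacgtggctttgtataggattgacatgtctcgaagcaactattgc
Chr3 satellite unit: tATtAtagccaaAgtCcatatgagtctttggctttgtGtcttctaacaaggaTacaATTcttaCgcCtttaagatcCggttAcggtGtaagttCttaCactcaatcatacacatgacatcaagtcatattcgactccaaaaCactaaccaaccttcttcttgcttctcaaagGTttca
Chr4 lower window: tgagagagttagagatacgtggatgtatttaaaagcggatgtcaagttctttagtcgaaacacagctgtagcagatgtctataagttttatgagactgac
Chr5 array unit, first part: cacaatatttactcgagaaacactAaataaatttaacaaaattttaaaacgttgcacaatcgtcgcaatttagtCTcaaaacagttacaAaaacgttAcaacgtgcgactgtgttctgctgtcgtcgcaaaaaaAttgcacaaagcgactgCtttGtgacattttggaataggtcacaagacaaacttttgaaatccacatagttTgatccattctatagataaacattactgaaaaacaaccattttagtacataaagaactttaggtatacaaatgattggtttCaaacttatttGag

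Few core windows can be mapped uniquely, and this bears on every value below. A window counted as unique in mapping, or uniquely mappable, where the genome holds 90% or more of its 24-mers at a single place. This held for 18.4% of core windows (8443), beside 40.9% of the 100000 windows within 1 Mb on either side and 87.2% of the rest of the nuclear genome. In the remaining windows a read that matches several copies was placed by the unique reads nearby, so the copy it came from is uncertain. Of core windows, 39.7% overlapped a pseudogene and 4.36% a protein-coding gene, beside 4.83% and 62.4% in the rest of the nuclear genome.

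In WT, 24-nt siRNAs were less dense in the core than in the flank and denser than in the rest of the nuclear genome. In RPM (reads per 1 M mapped reads), the 6 WT libraries had between 0.481 and 0.544 24-nt RPM per core window (median 0.4999). The flank had between 0.729 and 0.785 (median 0.760) and the rest between 0.386 and 0.414 (median 0.406). The ranges did not overlap. The log2 difference was -0.59 from the flank and 0.33 from the rest (exact two-sided sign-flip permutation test over 6 libraries, p = 0.03125 each, the smallest it allows). In uniquely mappable windows alone, the difference from the flank was -0.07 (exact permutation p = 0.344, n = 6), while the difference from the rest was 1.46.

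Reads of 24 nt made up between 65.8% and 67.6% of the 21- to 24-nt reads of the core in WT (median 67.0%). The median was 67.6% in the flank and 61.2% in the rest. The core was -0.527 percentage points from the flank and 6.01 from the rest (exact sign-flip permutation test, p = 0.03125 each, n = 6). The small difference from the flank turned to 3.12 points in uniquely mappable windows.

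The WT siRNAs were concentrated in few core windows. Of the core windows, 25.4% (11666) held no 24-nt read in any WT library, and the 460 with the most reads held 38.7% of the 24-nt signal. Windows without a WT read made up 41.5% on Chr1, 22.4% on Chr2, 21.3% on Chr3, 16.2% on Chr4 and 24.3% on Chr5. The single window chr4:4105001-4105100, printed above, held 7.78% of the 24-nt signal of all core windows in WT and 20.1% of that of Chr4. For groups and chromosomes, levels are given as RPMR (reads per 1 M 45S rRNA reads), the scale on which the study compared libraries. The mean WT level over both batches was 13.0 RPMR per window on Chr4, 7.60 on Chr5, 6.64 on Chr3, 4.47 on Chr2 and 3.57 on Chr1.

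Sequencing depth differed between groups and sets the precision of these values. The libraries held between 0.247 and 7.72 M (mega) 45S rRNA reads and between 0.532 and 8.35 M reads of 21 to 24 nt. *zmp-2 nrpd1-3* stood apart, with 6.26, 6.04 and 7.72 M 45S rRNA reads, beside 0.460, 0.470 and 0.384 M in *zmp-2* of batch B. Its mapped reads were 1.20, 1.18 and 1.39 M, beside 3.67, 3.53 and 2.31 M. Differences in RPMR between these groups therefore include the difference in 45S rRNA reads. In the core, the *nrpd1-3* libraries held 2021 and 949 24-nt reads and the *zmp-2 nrpd1-3* libraries 250, 567 and 367, while every other library held at least 62457. The mean 24-nt level of WT was 10.2 RPMR per core window in batch A and 4.39 in batch B, so RPMR was compared within batches only. With 3 libraries against 3 or 2 against 3, an exact two-sided permutation test cannot give a p below 0.1.

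The summed 24-nt level of the core did not differ detectably between *zmp-2* and WT. In batch A, the 24-nt RPMR per core window was 11.1, 9.82 and 9.54 in WT (mean 10.2 ± 0.845, SD, n = 3) and 11.3, 9.87 and 8.95 in *zmp-2* (10.03 ± 1.17, SD, n = 3). The batch B levels were 3.99, 5.32 and 3.85 in WT (4.39 ± 0.811) and 4.97, 4.64 and 3.53 in *zmp-2* (4.38 ± 0.753, SD, n = 3 each). The groups overlapped in both batches. Over both batches the log2 difference between *zmp-2* and WT was 0.04 at 21 nt, -0.01 at 22 nt, -0.04 at 23 nt and -0.01 at 24 nt (permutation test within batches, p = 0.755, 0.9, 0.7 and 0.95, n = 6 each). These directions depended on the scale, since in RPM the same differences were 0.29, 0.24, 0.21 and 0.24. A p of this size does not show that the levels were equal.

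The other sizes of the core followed the same order of abundance in WT. In batch A, WT had 0.921 RPMR per window at 21 nt, 1.81 at 22 nt and 2.18 at 23 nt, and *zmp-2* had 0.939, 1.87 and 2.19. In batch B the levels were 0.429, 0.822 and 0.963 in WT and 0.442, 0.782 and 0.901 in *zmp-2*. Each size was thus less abundant than the next longer one in these groups. In RPM, the batch A means per window were 0.0448, 0.0881, 0.106 and 0.494 in WT for 21, 22, 23 and 24 nt, and 0.0551, 0.110, 0.129 and 0.588 in *zmp-2*. In batch B they were 0.0507, 0.0972, 0.114 and 0.518 in WT and 0.0616, 0.109, 0.127 and 0.609 in *zmp-2*.

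The core nevertheless took a larger share of the nuclear siRNAs in *zmp-2*, a measure that needs no scaling between libraries. A larger share can come from more reads in the core or from fewer outside it, and the level outside was not compared. Of nuclear 24-nt reads, the WT libraries of batch A had 4.26%, 4.35% and 4.31% in the core and the *zmp-2* libraries 5.40%, 5.23% and 5.27%. In batch B the shares were 4.92%, 4.55% and 4.53% in WT and 5.81%, 5.92% and 6.08% in *zmp-2*. Every *zmp-2* library lay above every WT library of its batch. The mean difference was 0.995 points for batch A and 1.27 for batch B (exact permutation p = 0.1 each, n = 3 each), and 1.13 points over both batches (permutation test within batches, p = 0.005, the smallest it allows, n = 6 each). The share rose at 21, 22 and 23 nt too, by 0.458, 1.21 and 0.939 points (permutation p = 0.005 each, n = 6). In uniquely mappable windows alone the difference at 24 nt was reversed, at -0.288 points, and it was 0.0304 points without the Chr4 locus described further on.

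*ZMP-YFP zmp-2* libraries had 4.66%, 4.33% and 4.36% of nuclear 24-nt reads in the core, below every *zmp-2* library of batch A. The difference was -0.849 points from *zmp-2* (exact permutation p = 0.1, n = 3 each) and 0.146 points from WT (exact permutation p = 0.2, n = 3 each). The level in RPMR was 8.96, 8.13 and 7.11 per window (8.07 ± 0.927, SD, n = 3), lower than every WT library by a mean log2 difference of -0.34 (exact permutation p = 0.1). In RPM the line had 0.489 per window, beside 0.494 in WT. At 21, 22 and 23 nt it had 0.795, 1.61 and 1.82 RPMR per window.

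**Figure D1:**
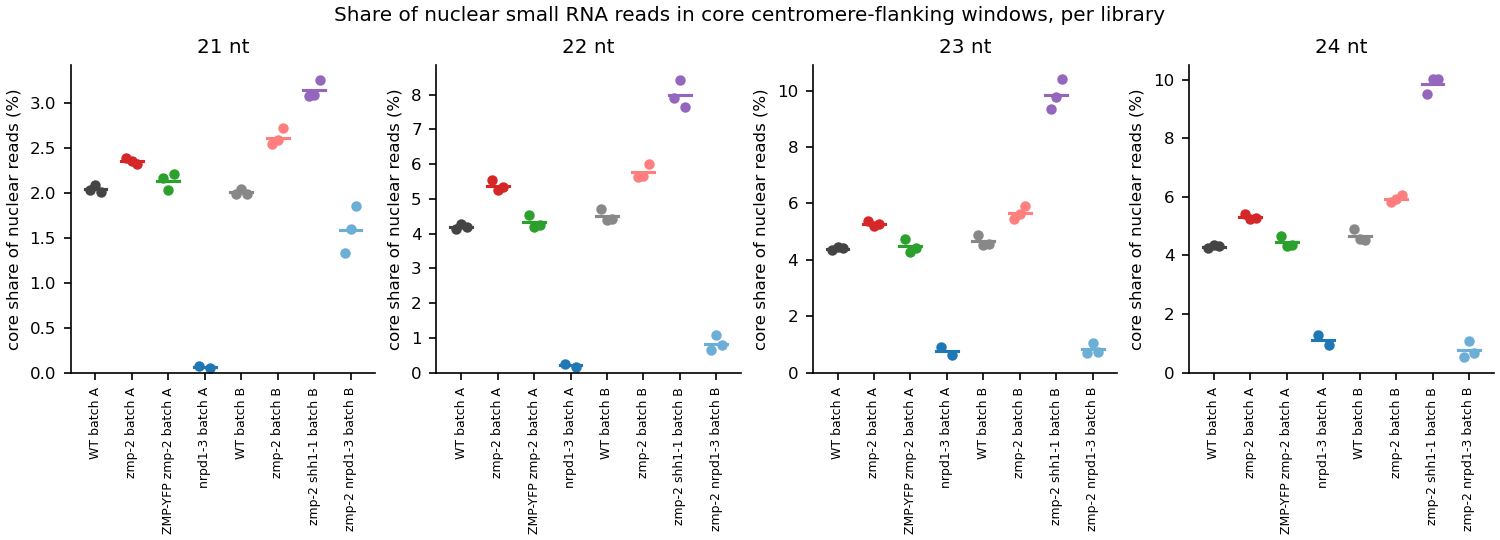
Percent of nuclear reads of 21, 22, 23 and 24 nt that lay in core centromere-flanking windows. Points are libraries, horizontal lines are group means, and each vertical axis starts at 0. At 24 nt, *zmp-2* lay above WT in both batches, *zmp-2 shh1-1* was highest with a mean of 9.85%, and *nrpd1-3* and *zmp-2 nrpd1-3* were lowest with means of 1.12% and 0.757%.

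Few small RNAs of the core were left in either mutant of *NRPD1*, with ZMP or without it. The *nrpd1-3* libraries had 0.0410 and 0.0295 24-nt RPMR per core window, a log2 difference of -8.19 from WT. The log2 difference was -6.16 at 21 nt, -7.15 at 22 nt and -7.68 at 23 nt (exact permutation p = 0.1 each, as low as these group sizes allow, and 0.175 when adjusted over 28 tests of core totals). *zmp-2 nrpd1-3* had 0.000868, 0.00204 and 0.00103 24-nt RPMR per window, and its log2 differences from *zmp-2* were -4.80, -8.59, -9.94 and -11.79 for 21, 22, 23 and 24 nt (exact permutation p = 0.1 each, n = 3 each). None of these libraries overlapped its control group at any size in RPMR. In RPM the 24-nt level was 0.0106 in *nrpd1-3* and 0.00691 in *zmp-2 nrpd1-3*, so the drop was smaller on that scale, and at 21 nt *zmp-2 nrpd1-3* lay above *zmp-2* in RPM by a log2 difference of 0.43.

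Differential windows were called for 24-nt reads with edgeR over the whole genome, requiring a change of 2-fold or more and an FDR of 0.05 or less. In *nrpd1-3* against WT, 6945 of the 46000 core windows had enough reads to be tested, which came mainly from WT, so a lower call followed largely from the filter. Of these, 6937 were hypo-DSRs (differential small RNA regions), beside 98.7% hypo-DSRs and 0.0945% hyper-DSRs among all windows tested in the genome. Without the filter 14929 of 29946 core windows were. The calls rest on the 45S rRNA scaling, since library sizes from mapped reads gave 6067 hypo-DSRs and DESeq2, with factors from the windows themselves, gave 15. The core median log2 fold change was -6.43 in edgeR, -5.15 from mapped reads and 0.53 in DESeq2. edgeR called 0 core windows hyper-DSRs here, beside 4 with library sizes from mapped reads and 49 with DESeq2, and 6937 core windows passed an unadjusted p of 0.05 in either direction. In *zmp-2 nrpd1-3* against *zmp-2*, where the same limit holds, 4482 of 4485 tested core windows were hypo-DSRs (4246 from mapped reads and 2369 from DESeq2), beside 98.8% hypo-DSRs and 0.0242% hyper-DSRs in the genome. Again 0 were hyper-DSRs in edgeR, with 3 from mapped reads and 2 from DESeq2, and 4482 core windows passed an unadjusted p of 0.05.

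Of the core reads left in the Pol IV mutants, a smaller part was of 24 nt. Reads of 24 nt made up 67.4% of core reads in WT and 66.7% in *zmp-2* of batch A, 65.6% in *ZMP-YFP zmp-2*, 66.4% and 67.2% in WT and *zmp-2* of batch B and 66.5% in *zmp-2 shh1-1*. *zmp-2* differed from WT by 0.0284 points over both batches (permutation p = 0.965, n = 6 each). In *nrpd1-3* the share was 49.0% and 49.1%, and in *zmp-2 nrpd1-3* it was 5.13%, 8.72% and 5.17%. Outside the core the *nrpd1-3* mean was 9.82% and the *zmp-2 nrpd1-3* mean 11.2%. Within the core, the *zmp-2 nrpd1-3* mean was 64.3% on Chr1 and 55.8% on Chr4, but 15.1% on Chr2, 13.8% on Chr5 and 1.27% on Chr3. In *nrpd1-3* the means were 60.0% on Chr1, 33.2% on Chr2, 48.5% on Chr3, 55.7% on Chr4 and 52.1% on Chr5. Reads that remained were few, with at most 567 24-nt core reads in a *zmp-2 nrpd1-3* library.

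On Chr2, 91 core windows within chr2:3500001-3509700 share at least 90% of their 24-mers with the mitochondrial genome, and 0 of them are uniquely mappable. They held 20.4% and 15.6% of the 24-nt reads of the Chr2 core in *nrpd1-3* and 28.3%, 24% and 28% in *zmp-2 nrpd1-3*. In the libraries of the other groups they held between 0.346% and 1.02%. Without these windows the 24-nt level of the Chr2 core was 0.0310 RPMR per window in *nrpd1-3* and 0.00162 in *zmp-2 nrpd1-3*, beside 0.0374 and 0.00217 with them. In WT of batch A it was 6.46 without them and 6.42 with them.

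By chromosome, *zmp-2* was lower than WT on Chr4 and higher on Chr5. On Chr4 the 24-nt RPMR per window was 20.5, 16.5 and 16.4 in WT of batch A (17.8 ± 2.35) and 13.5, 11.8 and 10.7 in *zmp-2* (11.99 ± 1.42, SD, n = 3 each). On Chr5 it was 10.96, 10.1 and 9.70 in WT (10.2 ± 0.650) and 17.2, 14.8 and 13.3 in *zmp-2* (15.1 ± 1.97). Neither pair of groups overlapped. In batch B, Chr4 had 7.33, 10.02 and 7.07 in WT (8.14 ± 1.63) and 5.86, 5.19 and 3.97 in *zmp-2* (5.01 ± 0.957). Chr5 had 4.58, 5.96 and 4.31 in WT (4.95 ± 0.887) and 9.47, 8.77 and 6.60 in *zmp-2* (8.28 ± 1.498, SD, n = 3 each). The directions of batch A recurred without overlap.

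On the remaining chromosomes the groups lay closer at 24 nt. Chr1 had 5.13 ± 0.121 RPMR per window in WT and 5.22 ± 0.624 in *zmp-2* of batch A, and 2.02 ± 0.347 and 2.06 ± 0.299 in batch B. Chr2 had 6.42 ± 0.487 and 7.60 ± 0.751 in batch A, and 2.51 ± 0.471 and 2.75 ± 0.436 in batch B. Chr3 had 9.72 ± 0.524 and 9.26 ± 0.898 in batch A, and 3.56 ± 0.585 and 3.15 ± 0.467 in batch B (SD, n = 3 each). The libraries of WT and *zmp-2* overlapped on these chromosomes in both batches. In RPM the means were higher in *zmp-2* than in WT on Chr1, Chr2, Chr3 and Chr5 in both batches, and lower on Chr4. In batch A the 24-nt RPM per window was 0.861 in WT and 0.702 in *zmp-2* on Chr4, and 0.498 and 0.884 on Chr5. The batch B values were 0.960 and 0.695 on Chr4, and 0.585 and 1.15 on Chr5.

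The share of each chromosome among core 24-nt reads was tested, since it needs no scaling. Chr4 held 40.1%, 36.6% and 37.3% in WT of batch A, while *zmp-2* had 26.04%, 26.01% and 25.9%. In batch B, WT had 39.98%, 40.9% and 39.9% and *zmp-2* had 25.6%, 24.3% and 24.4%. The difference over both batches was -13.7 points (permutation test within batches, p = 0.005, 0.00833 after adjustment over the 5 chromosomes, n = 6 each). Chr5 rose by 13.6 points, from means of 21.9% and 24.6% in WT of batches A and B to 32.7% and 41.1% in *zmp-2* (adjusted permutation p = 0.00833). Chr2 rose by 1.19 points (adjusted permutation p = 0.00833), but by 0.550 without the Chr4 locus described further on (adjusted permutation p = 0.065). Chr3 fell by 1.36 points (adjusted permutation p = 0.0188). That direction turned to a difference of 2.27 points in uniquely mappable windows (adjusted permutation p = 0.00625) and of 0.515 points without the Chr5 array (adjusted permutation p = 0.095). The difference on Chr1 was 0.269 points (permutation p = 0.235). Shares of a whole cannot all move alike, so these 5 tests are not independent. In *ZMP-YFP zmp-2* the mean was 37.7% for Chr4 and 22.4% for Chr5, and in *zmp-2 shh1-1* it was 26.0% and 39.7%.

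The shorter siRNAs of Chr4 and Chr5 differed in the same directions. On Chr4 the 21-, 22- and 23-nt levels were 1.43, 2.71 and 3.36 RPMR per window in WT of batch A, while *zmp-2* had 0.978, 1.89 and 2.40. On Chr5 they were 1.06, 2.17 and 2.40 in WT and 1.60, 3.20 and 3.37 in *zmp-2*. In batch B, Chr4 went from 0.701, 1.28 and 1.502 to 0.438, 0.743 and 0.921, and Chr5 from 0.570, 1.11 and 1.17 to 0.939, 1.62 and 1.71. The direction on each was the same at every size measured, and no test was made of single sizes by chromosome. On Chr1 the batch A levels were 0.487, 0.950 and 1.097 in WT and 0.461, 0.935 and 1.13 in *zmp-2*. On Chr2 they were 0.532, 0.964 and 1.55 in WT and 0.615, 1.20 and 1.73 in *zmp-2*, and on Chr3 0.936, 1.92 and 2.25 and 0.917, 1.86 and 2.16.

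The same chromosomes were followed in the other groups of batch A. In *ZMP-YFP zmp-2* the 24-nt level was 3.77 RPMR per window on Chr1, 5.23 on Chr2, 7.93 on Chr3, 13.9 on Chr4 and 8.36 on Chr5. In RPM these levels were 0.228, 0.317, 0.480, 0.844 and 0.505, beside 0.250, 0.312, 0.473, 0.861 and 0.498 in WT and 0.306, 0.446, 0.543, 0.702 and 0.884 in *zmp-2*. The order of the chromosomes in the transgenic line was that of WT on both scales, with Chr4 first and Chr5 next, while Chr5 came first in *zmp-2*. In *nrpd1-3* the 24-nt level was 0.0174 RPMR per window on Chr1, 0.0374 on Chr2, 0.0370 on Chr3, 0.0473 on Chr4 and 0.0383 on Chr5, so that Chr4 was highest and Chr1 lowest there too. At 21 nt its highest mean was on Chr2, at 0.0327, where the mitochondrion-like windows held 23.4% of the 21-nt reads.

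**Figure D2:**
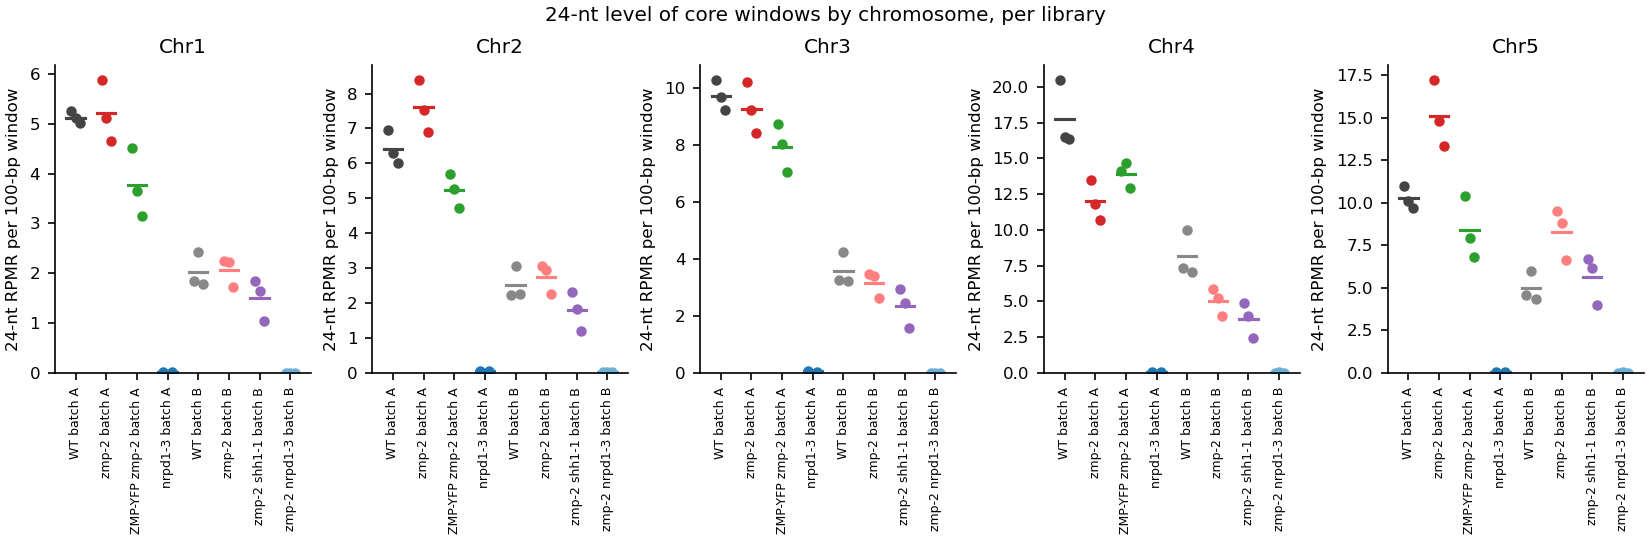
24-nt RPMR per 100-bp core window on each chromosome. Points are libraries, horizontal lines are group means, and each vertical axis starts at 0. *zmp-2* lay below WT on Chr4 (11.99 against 17.8 in batch A) and above it on Chr5 (15.1 against 10.2) in both batches, and batch A lay above batch B for WT and *zmp-2* alike.

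Single windows were then compared between *zmp-2* and WT. Of the 16072 core windows with enough reads in batch A, *zmp-2* was lower in 592 (3.68%, hypo-DSRs) and higher in 447 (2.78%, hyper-DSRs), beside 6.05% and 2.48% genome-wide. Of 9272 in batch B, 306 (3.30%) were lower and 298 (3.21%) higher, beside 6.12% and 1.82% genome-wide. The share of hypo-DSRs was thus lower in the core than in the genome in both batches, and that of hyper-DSRs higher. This difference in shares was not tested. The balance of the core calls depended on the scaling, with 471 lower and 738 higher in batch A and 266 and 445 in batch B when library sizes came from mapped reads. DESeq2 gave 337 and 260 in batch A and 152 and 236 in batch B. Tested core windows had a median log2 fold change of 0.13 (batch A) and 0.01 (batch B).

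Most hypo-DSRs lay on Chr3 and Chr4 and most hyper-DSRs on Chr5. Of the hyper-DSRs on Chr5, 126 in batch A and 157 in batch B lay in the 648-bp array described further on. Outside the array, 115 of 3614 tested windows of Chr5 were higher in batch A and 67 of 2253 in batch B. Of 3943 windows on Chr3 in batch A, 237 were lower and 53 higher, and of 4231 on Chr4 these were 224 and 61. Lower and higher windows numbered 56 and 241 of 3816 on Chr5, 9 and 34 of 1936 on Chr2, and 66 and 58 of 2146 on Chr1. Batch B gave 99 and 16 of 2194 on Chr3, 122 and 23 of 2357 on Chr4, 45 and 224 of 2479 on Chr5, 5 and 13 of 990 on Chr2, and 35 and 22 of 1252 on Chr1. The order of the chromosomes by hypo-DSRs differed between the batches only for Chr3 with Chr4 and for Chr1 with Chr5.

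Windows called in batch A were measured again in batch B, which shares no library with it. Enough reads were present there in 509 of the 592 hypo-DSRs, and *zmp-2* was the lower group in 489 (96.1%), with a median log2 fold change of -2.08 and 211 repeated calls. For the hyper-DSRs the same held in 383 of 447, with 341 (89.0%) higher, a median of 1.45 and 156 repeated calls. Over all core windows tested in batch B the median was 0.01. The read filter sums both groups, so a window that is low in either group passes mainly through the other. The share with the same direction was not computed for windows not called in batch A. In *ZMP-YFP zmp-2*, which shares the WT and *zmp-2* libraries of batch A, the median log2 fold change against WT was -0.55 for the windows lower in *zmp-2* and 0.35 for the higher ones, beside -0.35 over all core windows tested.

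The call of single windows in *ZMP-YFP zmp-2* itself was different against either control. Of 12700 core windows compared with WT, 14 were lower and 2 higher, beside 0.451% and 0.133% genome-wide, while DESeq2 gave 4 and 7 and mapped reads 5 and 5. Against *zmp-2*, 750 were lower and 410 higher among 16420 (4.57% and 2.497%), beside 4.34% and 4.01% in the genome. DESeq2 turned that balance, with 227 lower and 343 higher. Both counts against *zmp-2* depended on 1 library, with 319 lower and 219 higher when *ZMP-YFP zmp-2* replicate 2 was left out and 331 lower without *zmp-2* replicate 1.

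**Figure D3:**
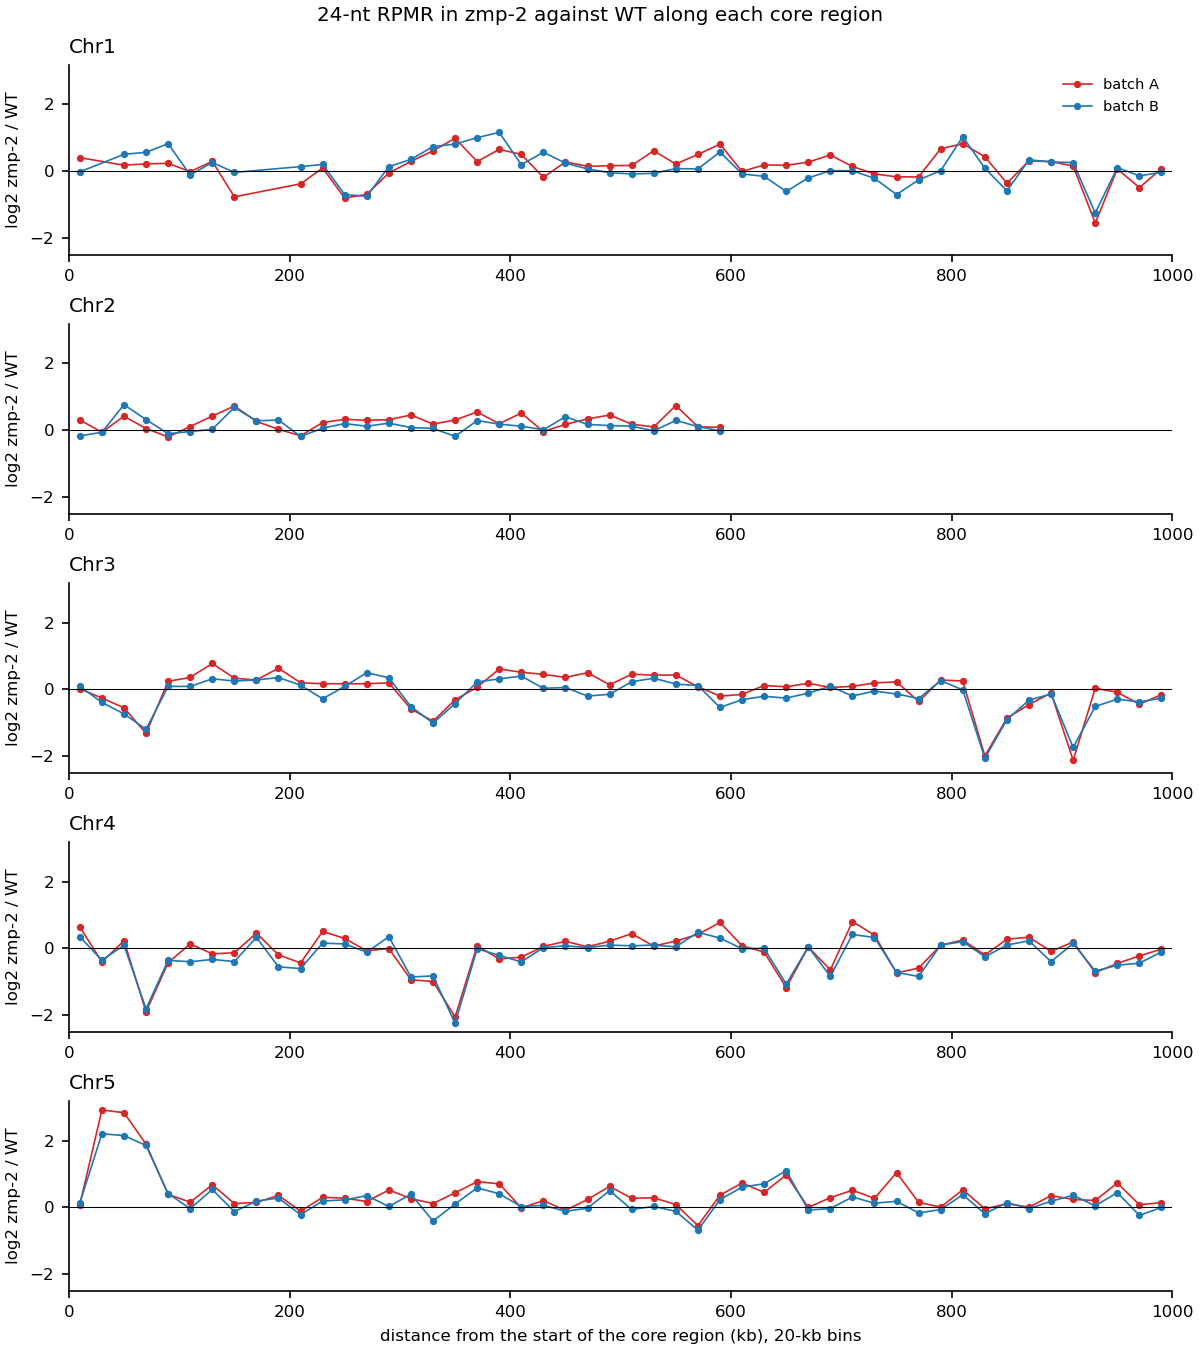
Log2 ratio of *zmp-2* to WT for 24-nt RPMR in 20-kb bins along each core interval, against the distance in kb from its start. Red is batch A and blue is batch B, each point is a bin's ratio of group means, and bins without WT reads are left out. The highest ratios lay near the start of Chr5, in the tandem array, and the deepest drops were on Chr3 and Chr4, at like positions in both batches.

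The lower windows of batch A that could be tested in batch B formed 164 loci when windows within 200 bp were joined, with up to 35 windows in a locus. The locus with the lowest FDR was chr4:3510301-3511800 (15 windows) in the pseudogene AT4G06567. At its lowest-FDR window, chr4:3510501-3510600, printed above, the 24-nt level was 484, 486 and 521 RPMR in WT of batch A, while *zmp-2* had 33.3, 26.4 and 31.1, values that chose the window. In batch B it was 105, 166 and 148 in WT and 8.70, 8.50 and 10.4 in *zmp-2*, with log2 fold change -3.88 ± 0.433 (SE, n = 3 each; edgeR FDR = 8.1e-07). *ZMP-YFP zmp-2* had 380, 622 and 476 RPMR, which spans the range of WT. *zmp-2 shh1-1* had 10.2, 2.74 and 2.61, from 10, 3 and 4 reads, and the window held at most 3 reads in an *nrpd1-3* or *zmp-2 nrpd1-3* library.

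The other lower loci named by the same rule were chr1:15532201-15535600 (26 windows) and chr4:3768701-3769200 (5 windows), which overlap no annotated gene. The window chr1:15533401-15533500 had 475 ± 27.2 RPMR in WT and 34.9 ± 3.31 in *zmp-2* of batch A, and 225 ± 15.8 in *ZMP-YFP zmp-2* (SD, n = 3 each). Its batch B levels were 132, 183 and 135 in WT and 17.4, 12.7 and 2.60 in *zmp-2*, 13.0-fold lower (edgeR FDR = 2.57e-06). The window chr4:3768901-3769000 had 1543 ± 145 RPMR in WT of batch A, beside 180 ± 35.4 for *zmp-2* and 1157 ± 144 for *ZMP-YFP zmp-2* (SD, n = 3 each). Its batch B libraries had 408, 528 and 372 in WT and 76.1, 57.4 and 39.0 in *zmp-2*, 7.49-fold lower (edgeR FDR = 1.18e-06). At the former the transgenic line lay between *zmp-2* and WT, and at the latter its lowest and highest libraries were 997 and 1277, below every WT library.

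The higher windows formed 197 loci with up to 16 windows, and the 3 with the lowest FDR all lay in the 648-bp array of Chr5. At chr5:11230601-11230700 the level was 40.7, 36.4 and 35.5 RPMR in WT of batch A, while *zmp-2* had 677, 464 and 774, values that chose the window. In batch B it was 139, 118 and 95.8 in WT and 553, 281 and 310 in *zmp-2*, with log2 fold change 1.68 ± 0.323 (SE, n = 3 each; edgeR FDR = 0.000811). *ZMP-YFP zmp-2* had 170, 73.9 and 95.1, above WT and below *zmp-2* of its batch. At chr5:11229301-11229400 the batch B means were 234 ± 30.6 in WT and 1539 ± 275 in *zmp-2*, 6.60-fold higher (edgeR FDR = 5.71e-07). At chr5:11256401-11256500 they were 119 ± 34.1 and 450 ± 123 (SD, n = 3 each), 3.77-fold higher (edgeR FDR = 0.000171). *zmp-2 shh1-1* had 197, 874 and 266 RPMR at these 3 windows, in the order given.

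The array was singled out after its values were seen, so it is described without a test. It spans chr5:11228901-11268100, or 39.2 kb and 392 windows (0.852% of core windows), of which 378 belong to the 648-bp class. It overlaps no annotated gene, 0 of its windows are uniquely mappable and its median GC content is 30%. The unit that starts at the sequence printed above shares 629 of 648 bases with the next copy (97.1%), and the assembled length allows 60.5 copies. The copy number in the plants was not measured, and levels per window depend on the assembled number. Of its 6952 distinct 24-mers, 135 (1.94%) occur elsewhere on the assembled chromosomes. This count is not weighted by reads and covers neither shorter reads nor uncalled sequence. The copy within the array that a read comes from is uncertain. Of the 24-mers, 54.1% occur once in the array and the most repeated occurs 58 times.

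Over the array the 24-nt level was 12.8, 7.80 and 8.93 RPMR per window in WT of batch A (9.86 ± 2.65) and 79.9, 71.2 and 62.6 in *zmp-2* (71.2 ± 8.68, SD, n = 3 each), 7.23 times as high. The batch B libraries had 19.5, 24.3 and 17.5 in WT (20.4 ± 3.50) and 108, 95.2 and 69.7 in *zmp-2* (91.1 ± 19.7, SD, n = 3 each), 4.46 times as high. The groups did not overlap, and WT was higher in batch B than in batch A whereas the whole core had the opposite order. *ZMP-YFP zmp-2* had 24.6, 8.998 and 8.56, so that replicate 1 lay above WT and the others within its range. The *nrpd1-3* mean was 0.0607 and the *zmp-2 nrpd1-3* mean 0.00433. *zmp-2 shh1-1* had 52.6, 53.3 and 36.6 (47.5 ± 9.41, SD, n = 3), below every *zmp-2* library of its batch in RPMR, while in RPM its mean was 13.9 against 12.6.

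For 21, 22 and 23 nt, the level of the array in *zmp-2* was 6.81, 7.04 and 6.61 times that in WT in batch A and 3.73, 3.51 and 3.87 times in batch B. The 4 sizes were thus higher together. The array held 0.819% of core 24-nt reads in WT and 6.05% in *zmp-2* of batch A, and 3.97% and 17.6% in batch B. In *ZMP-YFP zmp-2* it held 1.44% and in *zmp-2 shh1-1* 13.4%. Of the batch A hyper-DSRs of the core 126 lay in the array, among 202 of its windows tested, and of those of batch B 157 did, among 226. Elsewhere on Chr5, 115 of 3614 core windows were higher in batch A and 67 of 2253 in batch B. Without the array the core share of nuclear 24-nt reads still differed between *zmp-2* and WT by 0.589 points (permutation test within batches, p = 0.005, n = 6 each), and the share of Chr5 among core 24-nt reads by 7.03 points.

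The most abundant WT locus was likewise chosen after its values were seen. It spans chr4:4104101-4105300, or 12 windows of which 11 are uniquely mappable, and includes the Chr4 window printed above. Its 24-nt level was 6076, 3748 and 3979 RPMR per window in WT of batch A (4601 ± 1280) and 2482, 2026 and 1794 in *zmp-2* (2100.5 ± 350, SD, n = 3 each), 2.19-fold lower. In batch B it was 2616, 3687 and 2330 in WT (2878 ± 715) and 1850, 1389 and 1149 in *zmp-2* (1463 ± 356, SD, n = 3 each), 1.97-fold lower. The groups did not overlap in either batch. *ZMP-YFP zmp-2* had 3491, 3305 and 2714, above *zmp-2* and below WT, and *zmp-2 shh1-1* had 1490, 1263 and 694, which overlapped *zmp-2*.

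This locus, 1.2 kb long, held 11.7% of core 24-nt reads in WT and 5.44% in *zmp-2* of batch A, and 17.0% and 8.67% in batch B. In *ZMP-YFP zmp-2* it held 10.2% and in *zmp-2 shh1-1* 9.52%. Reads of 24 nt made up between 74.0% and 75.5% of its reads in the groups with Pol IV, and between 62.6% and 67.6% of those of the array. In RPM its *zmp-2* mean was also lower than that of WT, at 123 against 221 in batch A and 203 against 338 in batch B. Its *nrpd1-3* libraries still held 9.97 and 6.92 RPMR per window.

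**Figure D4:**
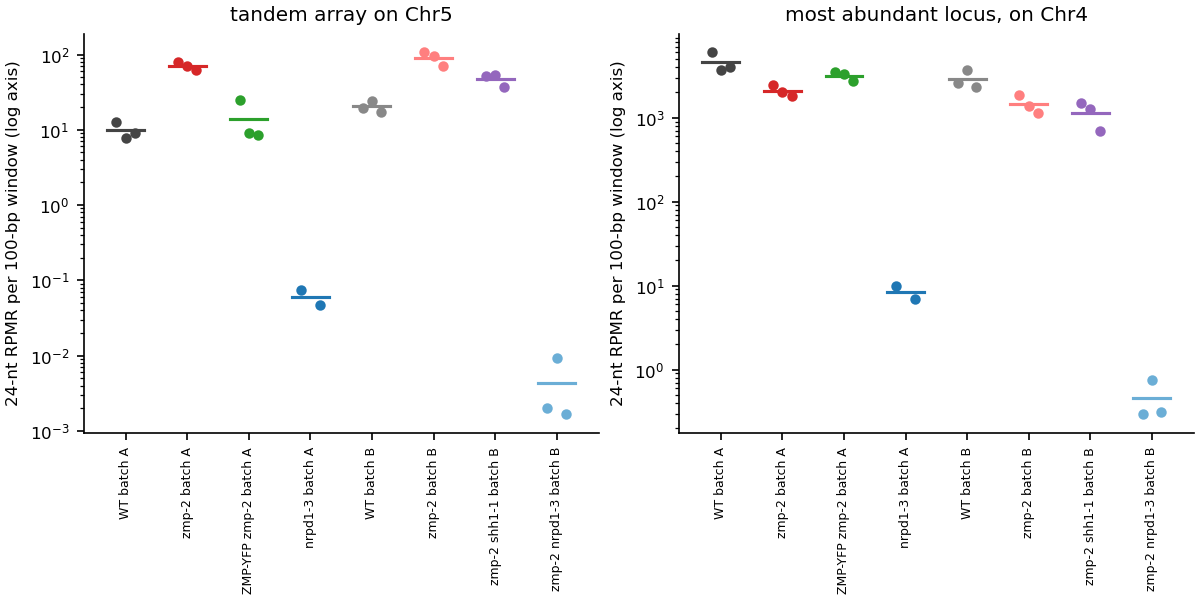
24-nt RPMR per 100-bp window over the tandem array of Chr5 and over the most abundant locus of Chr4, on log axes. Points are libraries and horizontal lines are group means. In *zmp-2* the array was higher than in WT (71.2 against 9.86 in batch A) and the Chr4 locus lower (2100.5 against 4601), and both were lowest in *nrpd1-3* and *zmp-2 nrpd1-3*.

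The window of each chromosome with the most WT reads was also followed. These windows were chosen on their WT level, so their values in WT and *zmp-2* are a description. The Chr4 window chr4:4105001-4105100 had 48042, 25433 and 29324 RPMR in WT of batch A, and means of 16240.4 in *zmp-2* and 23937 in *ZMP-YFP zmp-2*. Its batch B means were 17822 for WT, 10509 for *zmp-2* and 8699.5 for *zmp-2 shh1-1*. The Chr5 window chr5:11768101-11768200, in the pseudogene AT5G31927, had 1483, 2830 and 2916 in WT of batch A, while *zmp-2* had 1566 ± 270, and the batch B means were 595 ± 84.7 for WT and 272 ± 20.998 for *zmp-2* (SD, n = 3 each). The Chr1 window chr1:15450701-15450800, in the pseudogene AT1G40630, had 694 ± 68.8 and 331 ± 15.3 in batch A, and 519 ± 57.3 and 197 ± 48.9 in batch B (SD, n = 3 each). These 3 windows were lower in *zmp-2* in the mean of either batch.

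The windows of Chr2 and Chr3 had higher means in *zmp-2* than in WT. The Chr2 window chr2:3673301-3673400, uniquely mappable and outside annotated genes, had 834 ± 187 in WT and 1128 ± 17.1 in *zmp-2* of batch A, and 238 ± 72.0 and 335 ± 41.7 in batch B (SD, n = 3 each). The Chr3 window chr3:13586901-13587000, in the satellite unit printed above, had 732, 1296 and 1132 in WT of batch A, while *zmp-2* had 1485 ± 287, and the batch B means were 270 ± 88.4 for WT and 281 ± 46.4 for *zmp-2* (SD, n = 3 each). In *zmp-2 shh1-1*, a comparison that did not choose it, this satellite window had 158, 40.1 and 65.9 RPMR against 235, 281 and 328 in *zmp-2*, 3.20-fold lower (log2 -1.68 ± 0.445 SE, n = 3 each; edgeR FDR = 0.00205). These levels came from 155, 44 and 101 reads against 108, 132 and 126, and the fold was not examined in RPM. The other windows of the 5 were not called there. Their log2 fold changes were 0.24 on Chr1, -0.48 on Chr2, -0.27 on Chr4 and 0.31 on Chr5 (edgeR FDR between 0.457 and 0.752). Each of the 5 windows held at most 82 reads in any *nrpd1-3* or *zmp-2 nrpd1-3* library.

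Summed over all chromosomes, the level was lower in *zmp-2* in the uniquely mappable windows, while the mean of the others was higher in both batches. The others were not alike. The 11935 windows with 50% to under 90% unique 24-mers had lower means in *zmp-2*, though libraries overlapped. These means were 10.3 against 11.1 RPMR per window in WT of batch A, and 3.69 against 4.11 in batch B. In the 8443 uniquely mappable windows the 24-nt level was 19.4, 14.8 and 15.0 RPMR per window in WT of batch A, while *zmp-2* had 11.6, 10.2 and 9.09. The batch B libraries had 6.71, 9.36 and 6.40 in WT and 5.36, 4.51 and 3.58 in *zmp-2*. Every *zmp-2* library lay below every WT library. The log2 difference over both batches was -0.70 (permutation test within batches, p = 0.005, the smallest it allows, n = 6 each), and -0.47 without the Chr4 locus (permutation p = 0.005), an exclusion chosen after seeing the data. The *ZMP-YFP zmp-2* mean was 12.7. Among uniquely mappable nuclear windows, the core share of 24-nt reads differed between *zmp-2* and WT by -0.288 points over both batches. Without the Chr4 locus it differed by 0.0304 points (permutation test within batches, p = 0.12, n = 6 each). In the 36505 core windows of resolved sequence that are not uniquely mappable the means were 9.01 in WT and 10.3 in *zmp-2* of batch A and 3.796 and 4.48 in batch B, and without the array they were 8.999 and 9.59, and 3.62 and 3.54.

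The uniquely mappable windows did not move alike on all chromosomes. At 24 nt the log2 difference from WT on Chr4 (2721 windows) came to -0.96 in batch A and -0.92 in batch B, and -0.89 and -0.84 on Chr1 (367 windows). It was -0.35 and -0.40 on Chr3 (1887 windows). On Chr2 (1814 windows) it was 0.06 and 0.00448, and on Chr5 (1654 windows) 0.10 and -0.03. In the windows that are not uniquely mappable, the differences were -0.20 and -0.41 on Chr4 and -0.03 and -0.14 on Chr3. They were 0.09 and 0.08 on Chr1, 0.33 and 0.17 on Chr2, and 0.60 and 0.78 on Chr5, where the array lies. Among the uniquely mappable windows *zmp-2* was lower in 189 (6.56%) and higher in 21 (0.729%) of the 2881 that batch A could test. In batch B these were 97 (6.74%) and 7 (0.486%) of 1439. All windows tested in the genome had 6.05% and 2.48% in batch A and 6.12% and 1.82% in batch B. The share of lower calls was thus near that of the genome. Chr4 alone contributed 113 and 6 (of 1045) to batch A and 58 and 4 (of 567) to batch B. Outside the array, the windows that are not uniquely mappable gave 403 lower and 300 higher calls (of 12989) in batch A, and 206 and 134 (of 7607) in batch B.

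**Figure D5:**
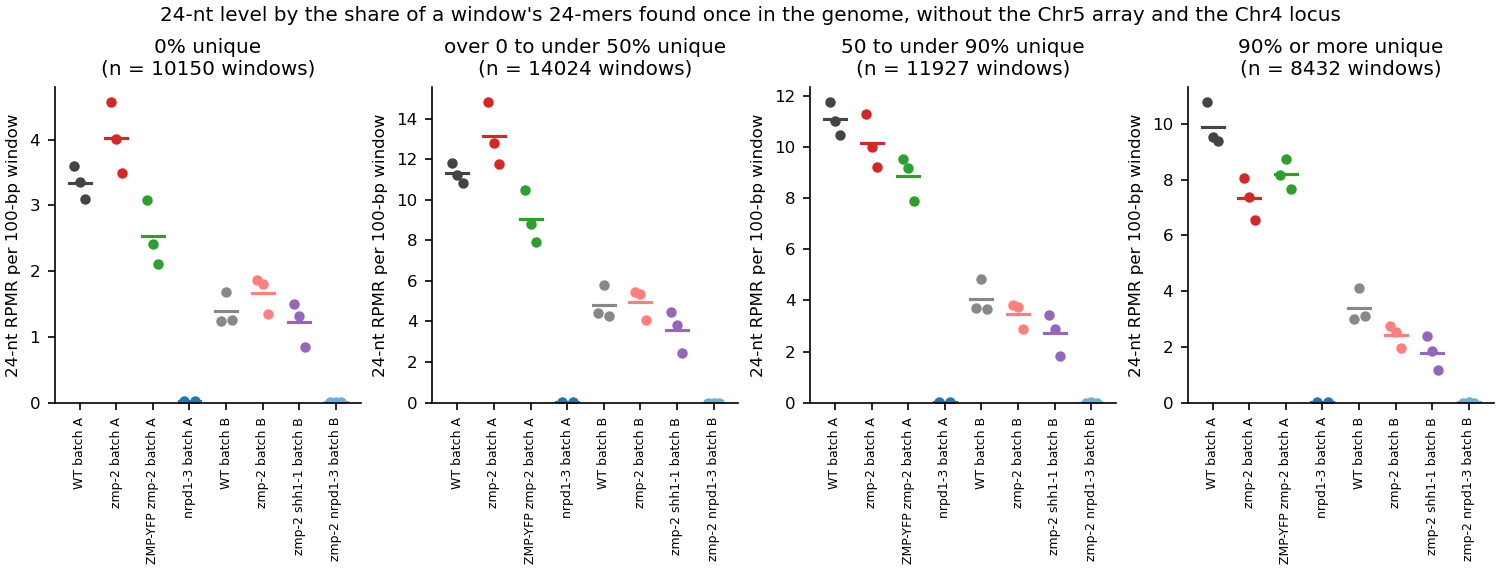
24-nt RPMR per 100-bp core window, by the share of a window's 24-mers that occur once in the genome, with the Chr5 array and the Chr4 locus left out. Points are libraries, horizontal lines are group means, and each vertical axis starts at 0. *zmp-2* lay below WT in the most uniquely mappable windows, with means of 7.33 against 9.89 in batch A and 2.41 against 3.403 in batch B.

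By sequence class, few windows of the 178-bp and 159-bp units were called between *zmp-2* and WT. The 178-bp satellite had 10 lower and 8 higher windows of 729 (batch A), and 5 and 4 of 557 (batch B). The 159-bp class had 8 lower and 12 higher of 554 (batch A), and 2 and 15 of 357 (batch B). Pseudogene windows outside tandem units had 351 lower and 199 higher of 7906 (batch A), and 166 and 76 of 4201 (batch B). The remaining windows had 215 and 100 of 6039, and 122 and 46 of 3554. Most hypo-DSRs lay outside tandem units, but so did most windows tested. In batches A and B, hypo-DSRs made up 1.37% and 0.898% of the 178-bp class and 1.44% and 0.56% of the 159-bp class. They made up 4.44% and 3.95% of the pseudogene windows and 3.56% and 3.43% of the remaining windows. The shares were 3.68% and 3.30% over all tested core windows and 6.05% and 6.12% genome-wide. Differences between classes were not tested.

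SHH1 was examined in *zmp-2 shh1-1* against *zmp-2*. A smaller share of core windows than of all windows was called lower, at 913 lower and 76 higher of 11103 (8.22% and 0.684%), beside 28.9% and 0.298% of all windows tested. The median log2 fold change was -1.004 over all tested windows and -0.31 over those of the core, and with library sizes from mapped reads 0.03 and 0.73. By that scaling the split of core calls turned to 348 hypo-DSRs and 1174 hyper-DSRs, and DESeq2 gave 149 and 299. The direction of the whole core thus turned with the scale. On the RPMR scale the core had 3.85, 3.33 and 2.11 per window (3.097 ± 0.893, SD, n = 3), with a log2 difference of -0.53 from *zmp-2* (exact permutation p = 0.2, n = 3 each), and in RPM 0.888 against 0.609, which reverses the direction. Among the 4 sizes, the 23-nt level differed most in RPMR, by -0.9997 on the log2 scale (exact permutation p = 0.1, n = 3 each), and least in RPM, by 0.07.

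The share of nuclear 24-nt reads that lay in the core was 9.53%, 10.02% and 10.02% in *zmp-2 shh1-1*. The difference from *zmp-2* was 3.92 points (exact permutation p = 0.1, the smallest possible, n = 3 each), without overlap. Of core reads, 9.96% were of 23 nt in *zmp-2 shh1-1* and 14.0% in *zmp-2*, and outside the core 8.07% and 13.3%. At 21, 22 and 23 nt the core held 0.386, 0.696 and 0.462 RPMR per window. At every size these means lay below those of *zmp-2* in RPMR and above them in RPM. By chromosome, the 24-nt means were 1.51 RPMR per window on Chr1, 1.78 on Chr2, 2.32 on Chr3, 3.74 on Chr4 and 5.61 on Chr5. In RPM they were 0.432, 0.509, 0.665, 1.06 and 1.62, and *zmp-2* of batch B had 0.287, 0.382, 0.440, 0.695 and 1.15. Chr5 had the highest mean in both groups on either scale.

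Within the core, the classes with tandem units had larger shares of hypo-DSRs in *zmp-2 shh1-1* than the pseudogenes. In the 178-bp satellite 224 of 503 tested windows were hypo-DSRs (44.5%, median log2 fold change -1.87). In the 648-bp class 69 of 240 were (28.8%, -1.04), in the 159-bp class 77 of 379 (20.3%, -1.18) and in the 506-bp class 25 of 140 (17.9%, -1.22). In windows of pseudogenes outside tandem units 133 of 5463 were (2.43%, -0.09), and in the remaining windows 358 of 4106 (8.72%, -0.41). These shares were set beside 8.22% of all core windows and 28.9% of all windows tested in the genome. Only the 178-bp satellite lay above the latter. For the 648-bp array the direction of the level turned with the scale, as given above. The differences between classes were not tested.

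The 178-bp satellite had 4.69, 4.40 and 3.50 24-nt RPMR per window in *zmp-2* (4.20 ± 0.622), while *zmp-2 shh1-1* had 1.48, 1.27 and 0.581 (1.11 ± 0.471, SD, n = 3 each). It was lower in RPM as well, at 0.308 against 0.585, and its share of core 24-nt reads was 2.48% against 6.87%. The 159-bp class had 0.962 RPMR per window against 2.21, and the 506-bp class 0.689 against 1.62. In RPM these were 0.272 against 0.305 and 0.194 against 0.225. Pseudogene windows outside tandem units had 3.48 RPMR per window in *zmp-2 shh1-1* and 3.77 in *zmp-2*, which in RPM was 1.00 against 0.526, and their share of core 24-nt reads was 44.2% against 33.9%. The satellite was thus lower on both scales, while the direction for the pseudogenes turned with the scale.

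The windows called in *zmp-2* of batch A were compared in the double mutants of batch B, in libraries that had not chosen them. In *zmp-2 nrpd1-3* against *zmp-2*, 184 of the hypo-DSRs and 339 of the hyper-DSRs had enough reads, and these came mainly from *zmp-2*, so their lower calls followed from the filter and are not described further. In *zmp-2 shh1-1* against *zmp-2*, 10 of 416 hypo-DSRs were lower calls with a median of -0.004, and 55 of 411 hyper-DSRs were with a median of -0.45. The median of all core windows in that comparison was -0.31, and lower calls made up 8.22% of them and 28.9% of all windows tested. Few reads were left in *zmp-2* of batch B at the 3 named lower windows (4, 4 and 4, then 8, 6 and 1, then 35, 27 and 15). Such counts leave little room for a further lower call, so the low count of the hypo-DSRs does not settle their response to *shh1-1*. By chromosome, lower calls in *zmp-2 shh1-1* numbered 127 of 1522 on Chr1, 137 of 1302 on Chr2, 172 of 2497 on Chr3, 180 of 2789 on Chr4 and 297 of 2993 on Chr5.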

How the data were processed

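The authors trimmed adapters with a script of their own, removed reads that matched rRNA, tRNA or small nucleolar RNA with Bowtie (version 1.1.0) and counted 45S rRNA hits. They mapped the remaining reads to TAIR10 with ShortStack without mismatches, placed multi-mapping reads by the unique reads nearby and dropped reads with very many matches. The deposited files give, per library and for 21 to 24 nt, a whole-number count per 100-bp window by the 5′ end of the read. The authors also deposited RPM, per 1 M mapped reads, and a score, RPMR, per 1 M 45S rRNA reads, each of which was the count times 1 factor per library. Windows that are not listed were taken as 0.

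Groups and replicate numbers came from the labels. Core windows, and the flank of 1 Mb on either side, were taken by position, and levels are means per window over all core windows, empty ones included. The counts of 24-nt reads were fitted within a batch with edgeR (version 4.0.16, R version 4.3.3, glmQLFit and glmQLFTest), with the 45S rRNA reads as library size, on all windows of the genome whose counts in the fitted libraries sum to 10 or more. Calls required a 2-fold change and a Benjamini-Hochberg FDR no higher than 0.05. Totals and shares were compared by exact two-sided permutation tests, within batches for both batches together (400 relabellings, smallest p 0.005). The alternatives were library sizes from mapped reads, DESeq2 (version 1.42.0), no count filter, the replicate number as a block, uniquely mappable windows alone, the highest windows left out and each library left out in turn. The fit was tested on simulated data. Depth limits single windows in *nrpd1-3* and *zmp-2 nrpd1-3* most, and no molecular identifiers were used, so reads need not be separate molecules.

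Uniquely mappable windows have at least 90% of their 24-mers once in the genome, and mitochondrion-like windows share at least 90% of theirs with the mitochondrial genome. Named windows were the highest WT window of each chromosome and, in each direction, the 3 loci with the lowest FDR in *zmp-2* against WT of batch A among windows also tested in batch B, joined within 200 bp. Members and lists were chosen with earlier results of these data known. Sequences and genes came from RefSeq TAIR10.1, whose chromosome lengths fit the files. Totals, sequences and plots were computed in Python 3.11.15 with numpy 2.4.6, pandas 2.3.3, Biopython 1.88 and matplotlib 3.10.9.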

Additional observations from a re-analysis of the deposited data

Results flagged for a closer look

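On Chr2, the 23-nt level of core windows moved in opposite directions in the 2 batches. On the log2 scale *zmp-2* differed from WT by 0.153 in batch A, from 1.55 to 1.73 RPMR per window, and -0.170 in batch B, from 0.690 to 0.615. The difference between the batches was not tested. In RPM both ratios were above 0, with 0.0753 and 0.101 in batch A and 0.0814 and 0.0863 in batch B.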

How the results depend on the processing

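RPMR and RPM disagree where the 45S rRNA reads differ between libraries. Reads of repeats cannot be placed with certainty, and few windows of *nrpd1-3* and *zmp-2 nrpd1-3* had enough reads. In each of the settings named here the cause of a change was not tested. Scaling by mapped reads gave log2 differences between *zmp-2* and WT of 0.292, 0.245, 0.215 and 0.243 over both batches for 21, 22, 23 and 24 nt, of 0.252 at 24 nt in batch A and of 0.170, 0.149 and 0.235 at 22, 23 and 24 nt in batch B. It gave 0.108, 0.148 and 0.0571 at 21, 22 and 23 nt for *ZMP-YFP zmp-2* against WT, 0.432 at 21 nt for *zmp-2 nrpd1-3*, and 0.863, 0.881, 0.0731 and 0.543 for *zmp-2 shh1-1*.

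In uniquely mappable windows the log2 differences between *zmp-2* and WT were -0.656, -0.786, -0.679 and -0.703 over both batches for 21 to 24 nt, -0.595, -0.685 and -0.592 at 21, 22 and 23 nt in batch A and -0.716 at 21 nt in batch B, and 0.357, 0.447, 0.258 and 0.303 for *ZMP-YFP zmp-2* against *zmp-2*. The core share differed there by -0.151, -0.295, -0.282 and -0.288 points, by -0.212 in batch A and -0.365 in batch B at 24 nt, and by 0.294 for *ZMP-YFP zmp-2* against *zmp-2*, and the 24-nt share of core reads by 0.0745 for *zmp-2 shh1-1*. The chromosome share differed there by -0.337 on Chr1 and 2.27 on Chr3. In WT the core was -0.0695 from the flank in level and 3.12 points in 24-nt share there. Other exclusions were chosen after seeing the data. Without the Chr4 locus, uniquely mappable windows gave -0.443, -0.630, -0.472 and -0.467, and core shares of -0.0359, -0.0781, -0.0155 and 0.0304 points. The other windows gave 0.172, 0.115 and 0.210 at 22, 23 and 24 nt, and 0.0386 and 0.0292 at 22 and 24 nt without the array. The share of Chr1 differed by -0.0436 without the highest windows, 1.48 without the array, -0.670 without the Chr4 locus and 0.718 without both, that of Chr3 by 0.515 without the array and that of Chr2 by 0.550 without the Chr4 locus.

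Counts of core calls moved as well. DESeq2, whose factors come from the windows themselves, gave 15 hypo-DSRs and 49 hyper-DSRs for *nrpd1-3*, 337 and 260 for *zmp-2* in batch A, 152 and 236 in batch B, 4 and 7 for *ZMP-YFP zmp-2* against WT, 227 and 343 against *zmp-2*, 2369 and 2 for *zmp-2 nrpd1-3* and 149 and 299 for *zmp-2 shh1-1*. Library sizes from mapped reads gave 4 hyper-DSRs for *nrpd1-3*, then 471 hypo-DSRs and 738 hyper-DSRs for *zmp-2* in batch A, 266 and 445 in batch B, 3 for *zmp-2 nrpd1-3*, 5 and 5 for *ZMP-YFP zmp-2* against WT and 348 and 1174 for *zmp-2 shh1-1*. Without a count filter there were 14929 hypo-DSRs for *nrpd1-3*, 19137 for *zmp-2 nrpd1-3*, 147 and 46 calls for *ZMP-YFP zmp-2* against WT and 31 hyper-DSRs for *zmp-2 shh1-1*. Samples with the same number did not deviate together, with correlations between -0.0465 and 0.0647. With the replicate number as a block, *ZMP-YFP zmp-2* against WT had 31 hypo-DSRs and 6 hyper-DSRs, *zmp-2* had 598 and 518 in batch A and 331 and 327 in batch B, and *zmp-2 shh1-1* had 874 and 85.

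With 1 library left out in turn, hypo-DSRs ranged from 4431 to 6898 for *nrpd1-3*, from 2737 to 4478 for *zmp-2 nrpd1-3* (hyper-DSRs 0 to 1), from 543 to 953 for *zmp-2 shh1-1* (hyper-DSRs 45 to 109, and 543 and 570 hypo-DSRs without *zmp-2* replicate 1 or 2) and from 3 to 14 for *ZMP-YFP zmp-2* against WT (hyper-DSRs 0 to 5). Against *zmp-2* that line had 319 to 942 lower and 219 to 431 higher windows, and *zmp-2* of batch A had 257 to 381 hyper-DSRs. The *zmp-2* log2 differences in batch A ranged from -0.0517 to 0.0840, -0.0253 to 0.0884, -0.0929 to 0.0841 and -0.109 to 0.0567 for 21 to 24 nt, in batch B from -0.0344 to 0.181, -0.158 to 0.0689, -0.175 to 0.0413 and -0.101 to 0.146, and over both from -0.00379 to 0.104, -0.0559 to 0.0575, -0.0901 to 0.0234 and -0.0616 to 0.0617. For *zmp-2 shh1-1* at 22 nt the range was -0.339 to 0.0240, and at the Chr3 satellite window the batch B range was -0.0755 to 0.358. The 24-nt share of core reads ranged from -0.249 to 0.409 points over both batches. In WT the core differed from the flank by -0.610 to -0.578 and from the rest by 0.302 to 0.349, and in 24-nt share by -0.581 to -0.465 and 5.69 to 6.18 points, where 5 libraries cannot pass 0.05. Of the main results, 142 values under other settings and 436 with 1 library left out kept their direction and their side of the threshold. Under other settings 47 turned direction, 26 moved, 9 passed the threshold newly and 3 no longer did. With 1 library left out 36 turned direction, 24 moved and 24 no longer passed.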

Other observations

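The 21-nt reads of *zmp-2 nrpd1-3* lay in few places of the core. These libraries held 3897, 4848 and 5815 21-nt core reads, which made up 80.0%, 74.5% and 81.9% of their core reads, beside means between 6.11% and 8.41% in the groups with Pol IV and 18.1% in *nrpd1-3*. On Chr3 the 21-nt level was 0.339 RPM per window in *zmp-2 nrpd1-3*, beside 0.0453 for *zmp-2* and 0.0910 for *zmp-2 shh1-1*, while in RPMR it was 0.0639, 0.324 and 0.312.

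Of these 21-nt reads, 57.2% lay in windows of the 506-bp tandem unit, and 5 windows of Chr3 held 53.6%. The highest, chr3:13594601-13594700, had 504, 1273 and 1521 21-nt reads in *zmp-2 nrpd1-3*, 16, 3 and 5 in WT of batch B and 7, 1 and 1 in *zmp-2*. The others, chr3:13722501-13722600, chr3:13716001-13716100, chr3:13772701-13772800 and chr3:13714001-13714100, had 1157, 1124, 1119 and 1104 reads in sum over the 3 libraries. Both *nrpd1-3* libraries held 0 reads of 21 nt in each of the 5 windows, and the 24-nt reads of *zmp-2 nrpd1-3* there summed to at most 1 per window. These windows were chosen for their 21-nt reads, so no test was made. The *zmp-2 nrpd1-3* libraries were also those with the most 45S rRNA reads, between 6.04 and 7.72 M. As 5S rRNA genes were not analysed, siRNAs were not told apart from fragments of rRNA or other RNAs in these windows. The origin of the reads was not tested.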
